A study of Homo sapiens with 9 samples.

Results

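The RNAs described here are 5 short structural RNAs made by RNA polymerase III, namely RN7SK (the 7SK RNA), RN7SL1 and RN7SL2 (the 7SL RNA), RMRP and RPPH1. They were chosen by gene name, and their estimated counts and TPM values were read in nuclear and cytoplasmic fractions. Of the 5 genes, 3 (RN7SK, RN7SL2 and RMRP) had a transcript in the files that the annotation used here paired with the gene. RN7SL1 and RPPH1 were not analysed here, because no transcript of the files was paired with them. The whole series held 56349 genes with a matched transcript, and 16181 of them had enough counts to be tested, RN7SK and RN7SL2 among them.

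The cells were HEK293 in the sample labels, a human embryonic kidney line that carries adenoviral genes, while the methods name its T derivative. They were transfected either with a control siRNA or, for the knockdown, with a pair of siRNAs that target WTAP and KIAA1429, both subunits of the complex that writes N6-methyladenosine (m6A) into mRNA. Nuclei and cytoplasm were separated and libraries were made from mRNA with a kit that selects polyadenylated RNA. The 9 libraries were 3 control nuclear, 3 RNAi nuclear, 2 RNAi cytoplasmic (replicates 1 and 2) and 1 control cytoplasmic (replicate 2). No replicate check is possible for the control cytoplasm. Nothing in the labels says whether replicates were separate cultures, and the p-values then measure only the spread between these libraries.

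RNA polymerase III makes short RNAs that mostly end in a run of U and carry no poly(A) tail. 7SK RNA works in the nucleus, where it holds the elongation kinase P-TEFb in an inactive particle with HEXIM proteins, LARP7 and MEPCE. 7SL RNA is the scaffold of the signal recognition particle, which docks ribosomes that make secreted proteins at the endoplasmic reticulum. RMRP and RPPH1 are the RNA subunits of RNase MRP and RNase P, which cut precursors of ribosomal and transfer RNA. Their levels were read here as markers of the fraction and of RNA carried over into an mRNA library.

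The sequences of RN7SK and RMRP are shown because the way reads were shared between near-identical copies sets how firmly each level is known. They were read from the GRCh37 genome at the GENCODE coordinates of each transcript, and T stands for the U of the RNA. Capitals mark GGACT, a sequence that m6A is often found in.
RN7SK, positions 1 to 300 of 331, chr6:52860418-52860748, plus strand: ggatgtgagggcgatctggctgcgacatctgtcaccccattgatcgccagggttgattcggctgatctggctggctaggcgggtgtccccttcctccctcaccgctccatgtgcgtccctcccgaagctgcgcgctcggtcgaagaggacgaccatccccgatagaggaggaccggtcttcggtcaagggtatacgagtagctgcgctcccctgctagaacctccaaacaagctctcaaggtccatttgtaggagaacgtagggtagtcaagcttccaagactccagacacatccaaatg
RMRP, whole, chr9:35657751-35658014, minus strand: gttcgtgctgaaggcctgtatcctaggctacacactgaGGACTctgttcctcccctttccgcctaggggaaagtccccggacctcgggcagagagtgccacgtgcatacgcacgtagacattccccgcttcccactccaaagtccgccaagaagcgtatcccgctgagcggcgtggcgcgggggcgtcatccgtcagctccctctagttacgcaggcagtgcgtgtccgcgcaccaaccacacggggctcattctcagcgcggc
GGACT on the strand of the RNA was found 1 time in RMRP, at position 39, and not in RN7SK. It was present in 25.4% of the 6715 matched transcripts of 250 to 350 nt in the files. The longest run of A was 3 in both, and runs at least as long were present in 95.9% of the same 6715 transcripts. Of the words of 31 bases in RN7SK, 87.4% also occurred in other transcripts, 97 in number, and of those in RN7SL2, 85.8% occurred in 573 other transcripts. For RMRP the share was 0.4%, with 1 other transcript. Only transcripts paired with a gene were compared, so a copy among the unpaired transcripts would not have been seen. The split of reads between RN7SK or RN7SL2 and their copies is therefore an estimate, and RN7SL2 may hold reads of RN7SL1.

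Totals ran from 11627403 to 19036141 estimated counts per library, and 83.07% to 88.31% of them belonged to matched genes. At these depths 3 counts corresponded to 0.19 to 0.303 counts per 1000000 counts of matched genes (CPM, scaled by TMM in the values of single genes). The fractions were checked with known RNAs. MALAT1, NEAT1 and KCNQ1OT1, long non-coding RNAs that stay in the nucleus, were higher in all 6 nuclear libraries than in any cytoplasmic library, with MALAT1 at 88.2 to 199.0 CPM against 5.46 to 13.8 CPM. GAPDH and EEF1A1, mRNAs of a glycolytic enzyme and a translation factor, were higher in all 3 cytoplasmic libraries, and all 5 of these genes passed the test between fractions in both control and RNAi cells. Mitochondrially encoded mRNAs were not higher in the cytoplasmic libraries as a group. Of the 8 listed (MT-ND1, MT-ND2, MT-ND4, MT-CO1, MT-CO2, MT-CO3, MT-ATP6 and MT-CYB), each over 0.1% of the counts of a library, 3 were called higher in the nucleus in control cells, where 28% of all tested genes were, and 2 higher and 1 lower in RNAi cells, where 32.9% and 24.9% were. MT-CO1 was higher in all nuclear libraries, at 36690 to 86100 CPM, than in any cytoplasmic library, at 19640 to 35890 CPM. VIM, NEFM and PAX2, which these cells express, were present in every library, and PTPRC (at most 0.218 CPM) and ALB (at most 0.0925 CPM), markers of blood and liver cells, were at or near 0. WTAP was at 23.0 to 27.5 CPM in control nuclei and 12.2 to 15.5 CPM in RNAi nuclei. VIRMA, the current symbol of KIAA1429, was at 13.1 to 19.8 and 5.55 to 9.16 CPM.

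RNAi nuclear replicate 2 stood apart in several classes of RNA that usually carry no poly(A) tail. Its transcripts annotated as rRNA came to 30.3 counts per 1000000 estimated counts, against 4.22 and 4.45 in the other RNAi nuclei and 1.87 to 2.67 in control nuclei. For snRNA transcripts, the RNAs of the spliceosome, it held 105 counts per 1000000, against 21.3 and 24.9 in the other RNAi nuclei. For snoRNA transcripts it held 93.5 counts per 1000000, against 52.9 and 55.2. For transcripts annotated as misc_RNA, the class that holds RN7SK and RN7SL2, it held 261 counts per 1000000, against 105 and 109. The mitochondrial tRNA and scRNA classes were not higher there. Mitochondrial tRNA transcripts were at 167 counts per 1000000, against 251 and 255. The 1 transcript annotated as scRNA was at 11.6, against 11.95 and 13.1. Protein-coding transcripts were at 699776 counts per 1000000 in replicate 2, below every other library, and at 721855 and 731363 in the other RNAi nuclei. Matched genes held 85.1% of the estimated counts of replicate 2, against 88.31% and 87.57% in the other RNAi nuclei. Of the 16181 tested genes, 2 were at least 4 times as high in this library as in any other, and these were RN7SK and RNU2-2P, a U2 snRNA gene. Control cytoplasmic replicate 2 also had 2 genes of that kind, both protein-coding, and the other 7 libraries had none. Genes with too few counts to be tested and transcripts paired with no gene were left out of these numbers. The untested U1 gene RNU1-1 was at 9.16 CPM in RNAi nuclear replicate 2 and at most 0.87 CPM elsewhere. The cause of the differences in RNAi nuclear replicate 2 was not tested. The tests of RN7SK are given with and without that library, and other results without it only where stated.

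**Figure D1:**
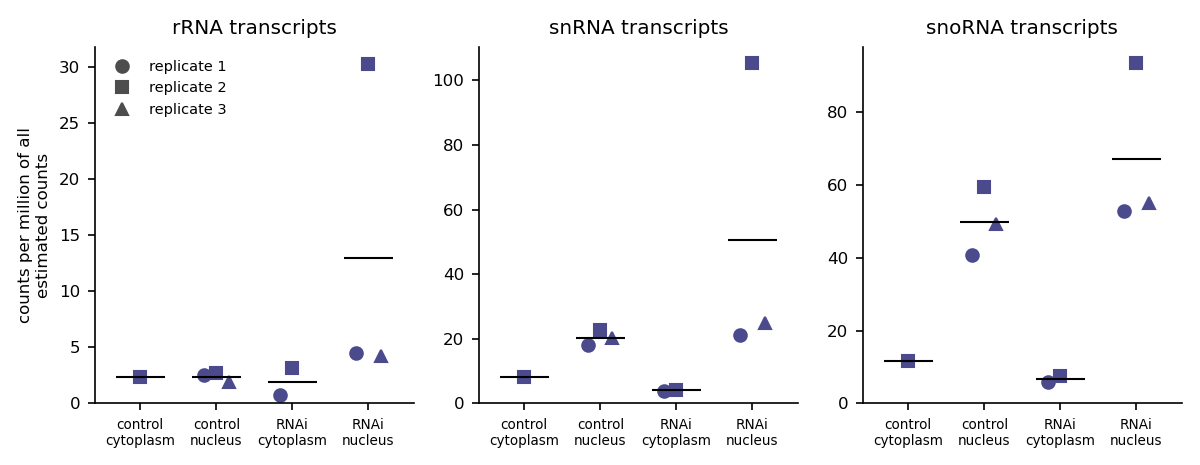
Counts per 1000000 estimated counts on the y axis for transcripts annotated as rRNA, snRNA and snoRNA, with 1 point per library by group and black bars at the group means. RNAi nuclear replicate 2 (square) is at 30.3, 105 and 93.5, above every other library in each panel.

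RN7SK was higher in the cytoplasmic libraries than in the nuclear libraries, except in RNAi nuclear replicate 2, where it was higher than anywhere else. It was at 13.7 CPM in the control cytoplasm, at 5.14, 6.53 and 6.80 CPM in control nuclei and at 10.8 and 14.6 CPM in the RNAi cytoplasm. RNAi nuclei held 5.55, 139 and 5.44 CPM in replicates 1, 2 and 3. The lowest cytoplasmic library, at 10.8 CPM, lay above the highest of the other 5 nuclear libraries, at 6.80 CPM, so without replicate 2 the fractions did not overlap. How many other genes separated in the same way was not counted. Replicate 2 was 25.3 times the mean of the other RNAi nuclei and 9.51 times the highest other library. In estimated counts this was 1504 in replicate 2 against 80.0 and 75.5. Its share was 129 counts per 1000000 estimated counts, with an exact binomial 95% interval of 123 to 136, which covers counting error only. Ranked by the log2 ratio of replicate 2 to the mean of the other RNAi nuclei, RN7SK was number 1 of the 16181 tested genes, at 4.54, where 95% of genes lay between -0.68 and 0.55. These are levels relative to the other RNA of each library, so a lower value cannot be told apart from more of the other RNAs in that fraction.

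**Figure D2:**
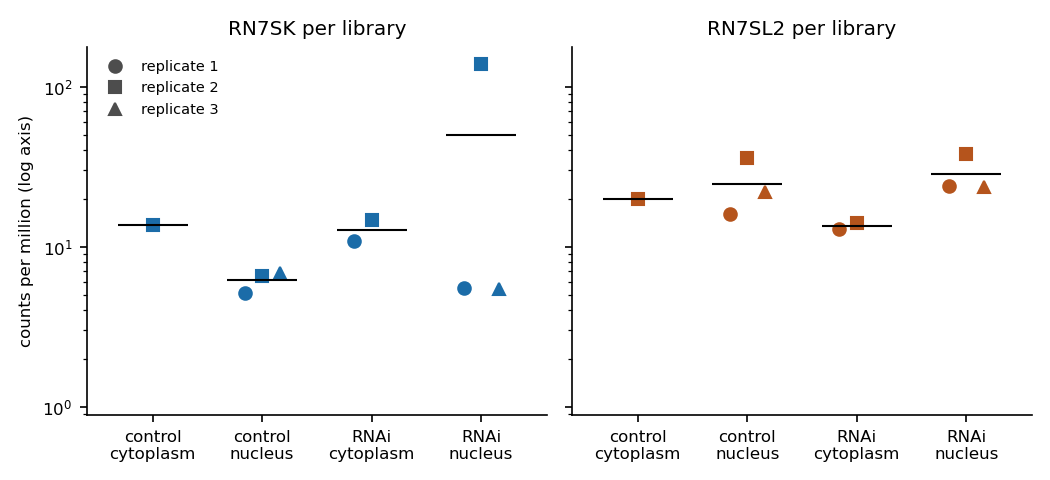
CPM of RN7SK and RN7SL2 on a log y axis, by group, with 1 point per library and black bars at the group means. RN7SK is at 139 in RNAi nuclear replicate 2 and at 5.44 to 14.6 elsewhere, while RN7SL2 spans 12.8 to 38.0.

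In the fit of all 9 libraries, RN7SK was not called in any of the 5 comparisons. A gene was called at a Benjamini-Hochberg adjusted p (FDR) under 0.1 and a log2 fold change beyond 0.5 in size, with edgeR's quasi-likelihood test. For nucleus against cytoplasm in control cells, the log2 fold change of RN7SK was -1.15 with a standard error (SE) of 1.41 and an FDR of 0.522. None of the 2 tested members was called there, where 50.8% of all tested genes were (28% higher and 22.7% lower), and the smaller unadjusted p of the 2 was 0.433. In RNAi cells the same contrast gave 1.97 with an SE of 1.17 and an FDR of 0.167, and 1 of the 2 members, RN7SL2, was called, against 57.8% of all tested genes (32.9% higher and 24.9% lower). For RNAi against control in the nucleus, RN7SK was at 3.01 with an SE of 1.07 and an FDR of 0.146. No member was called in that comparison, where 4.89% of genes were (2.47% higher and 2.42% lower), although the unadjusted p of RN7SK was 0.0175. Neither member was called for RNAi against control in the cytoplasm, where 24.6% of genes were (10.4% higher and 14.2% lower), and RN7SK was at -0.11 with an FDR of 0.972. For the change of the nucleus/cytoplasm ratio after RNAi, the contrast the study was built on, no member was called and 18.2% of genes were (10.4% higher and 7.87% lower), and RN7SK was at 3.12 with an SE of 1.81 and an FDR of 0.292. The unadjusted p of both members was above 0.05 in these last comparisons. The DESeq2 Wald test called the same number of members in each comparison, with no p for RN7SK.

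Without RNAi nuclear replicate 2, RN7SK was called lower in the nucleus in both control and RNAi cells. In the fit of all 9 libraries, 22.7% and 24.9% of all tested genes were called lower there, and the shares without replicate 2 are not given. In control cells the log2 fold change of RN7SK was nearly the same, at -1.14 against -1.15, but the SE was 0.23 in place of 1.41 and the FDR was 0.00426. In RNAi cells it was lower too, at -1.19 with an SE of 0.22 and an FDR of 0.0019, the opposite direction of the fit with all libraries. RNAi against control gave -0.16 in the nucleus with an FDR of 0.753 and -0.11 in the cytoplasm with an FDR of 0.806. The change of the nucleus/cytoplasm ratio was -0.05 with an SE of 0.33 and an FDR of 0.946. The direction between fractions in RNAi cells thus rested on that 1 library. The control libraries were the same in both fits, so the direction in control cells had little room to change. The call in control cells changed with the SE.

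**Figure D3:**
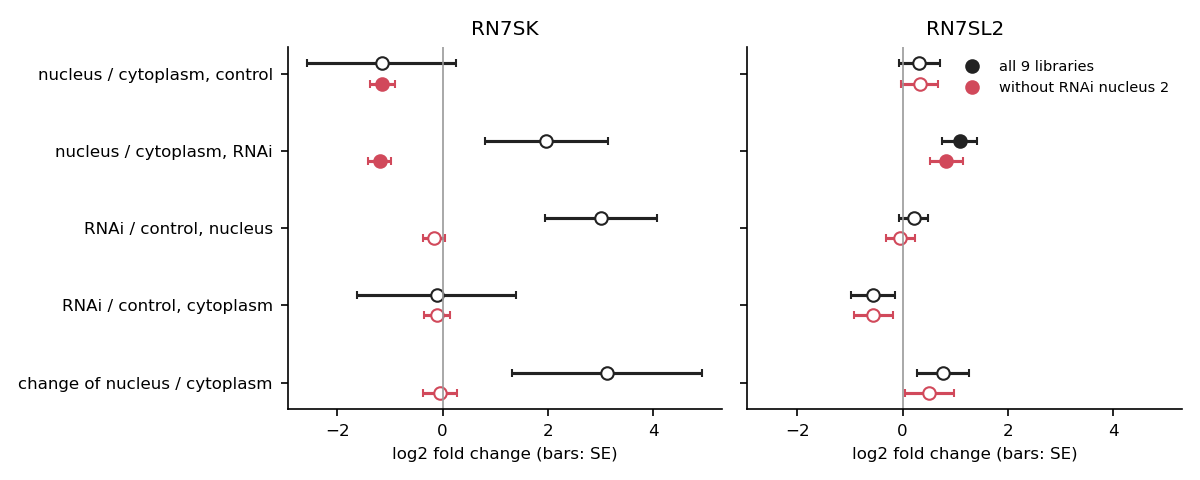
Log2 fold change of RN7SK and RN7SL2 in the 5 comparisons, with bars of 1 SE, from all 9 libraries (black) and without RNAi nuclear replicate 2 (red). Filled points passed both thresholds. RN7SK for nucleus against cytoplasm in RNAi cells moves from 1.97 to -1.19.

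RN7SL2 was higher in the RNAi nuclei than in the RNAi cytoplasm, and differed less between fractions in control cells. It was at 19.7 CPM in the control cytoplasm and at 16.0, 35.6 and 22.1 CPM in control nuclei, which lay on both sides of the cytoplasmic value. The RNAi cytoplasm held 12.8 and 14.1 CPM, and RNAi nuclei held 24.0, 38.0 and 23.6 CPM, with no overlap between those groups. The share of all genes without such overlap was not counted. For RNAi cells the log2 fold change of nucleus over cytoplasm was 1.08 with an SE of 0.32 and an FDR of 0.0146. Without RNAi nuclear replicate 2 it was 0.83 with an SE of 0.32 and an FDR of 0.0491, still called. In control cells it was 0.32 with an SE of 0.39 and an FDR of 0.524. The test of the difference between the RNAi and control ratios gave 0.77 with an SE of 0.50 and an FDR of 0.346. Without RNAi nuclear replicate 2 it gave 0.51 with an SE of 0.47 and an FDR of 0.528. The ratio was thus not shown to differ between RNAi and control cells. The difference was called without control nuclear replicate 2, at 1.14 with an FDR of 0.0614, and with no filter on low counts, at 0.77 with an FDR of 0.055. The fit with no filter also gave RN7SK an FDR of 8.62e-68 for RNAi against control in the nucleus, where 1 RNAi library was high. Its FDRs are therefore not relied on. RNAi against control was 0.21 in the nucleus with an FDR of 0.701 and -0.56 in the cytoplasm with an FDR of 0.381.

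RNAi nuclear replicate 2 was high in RN7SL2 as well, but control nuclear replicate 2 was nearly as high. The former was 1.07 times the highest other library and 1.60 times the mean of the other RNAi nuclei. In TPM, which is scaled by effective length and allows levels of different genes to be set side by side, RN7SL2 was above RN7SK in 8 of the 9 libraries. The TPM ratio of RN7SL2 to RN7SK was 1.18 to 1.74 in the cytoplasmic libraries and 3.79 to 6.73 in the nuclear libraries other than RNAi nuclear replicate 2, where it was 0.337. In that library RN7SK stood at 1089 TPM and RN7SL2 at 367 TPM. The effective length salmon used for transcripts of 250 to 350 nt had a median of 109 to 133 nt per library. TPM values of such short RNAs depend on that correction.

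Both families hold many pseudogene copies with nearly the same sequence, and the copies showed a different pattern from the genes themselves. The 294 copies of RN7SK summed to 2.00 CPM in the control cytoplasm and 5.56 to 6.85 CPM in control nuclei. They summed to 0.777 and 0.327 CPM in the RNAi cytoplasm and 6.74 to 7.84 CPM in RNAi nuclei. Every nuclear library lay above every cytoplasmic library, the reverse of RN7SK in the 8 libraries without RNAi nuclear replicate 2. How many genes separated in this way was not counted. Of all tested genes, 28% were called higher in the nucleus in control cells and 32.9% in RNAi cells. In RNAi nuclear replicate 2 the copies were at 7.22 CPM, 0.989 times the mean of the other RNAi nuclei, while RN7SK was 25.3 times as high. RN7SK took 95.1% of the counts of its family there and 41.4% and 44.9% in the other RNAi nuclei. Its share was 87.1% to 97.8% in the cytoplasm and 43.0% to 54.8% in control nuclei. Many copies lie inside introns or between genes, and reads of nuclear precursors over a copy were not told apart here from reads of the copy.

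The summed RN7SK copies were higher in the nucleus by a log2 fold change of 1.66 in control cells, with an FDR of 0.00177, and 3.62 in RNAi cells, with an FDR of 9.1e-06. They were lower after RNAi in the cytoplasm, at -1.76 with an SE of 0.41 and an FDR of 0.0151, and did not pass the test in the nucleus, at 0.20 with an FDR of 0.588. The nucleus/cytoplasm ratio of the copies rose by 1.96 on the log2 scale after RNAi, with an SE of 0.45 and an FDR of 0.0231. Without RNAi nuclear replicate 2 it was 1.97 with an FDR of 0.0454. These sums were small, with 33.4 estimated counts in the control cytoplasm and 3.0 in RNAi cytoplasmic replicate 2.

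The 859 copies of RN7SL2, a group that includes those named after any RN7SL gene, summed to far more than RN7SL2 in the nucleus. They were at 60.9 to 61.5 CPM in control nuclei, 69.6 to 83.5 CPM in RNAi nuclei and 10.9 to 13.3 CPM in the 3 cytoplasmic libraries. The log2 fold change of nucleus over cytoplasm was 2.31 in control cells with an FDR of 1.97e-05 and 2.63 in RNAi cells with an FDR of 7.69e-07. RNAi against control did not pass the test in either fraction, with FDRs of 0.17 in the nucleus and 0.899 in the cytoplasm. The change of the ratio was 0.32 with an FDR of 0.35. RN7SL2 itself took 20.8% to 36.7% of its family in the nuclear libraries and 51.5% to 61.4% in the cytoplasmic libraries.

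**Figure D4:**
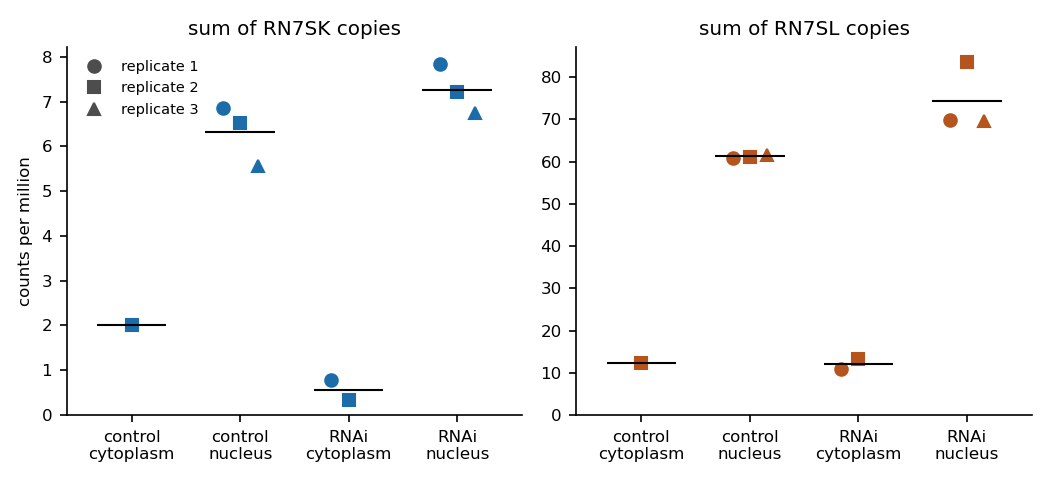
Summed CPM of the pseudogene copies of RN7SK (left) and of RN7SL2 (right), with 1 point per library and black bars at the group means. Nuclear libraries lie at 5.56 to 7.84 and 60.9 to 83.5, and cytoplasmic libraries at 0.327 to 2.00 and 10.9 to 13.3.

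The RMRP transcript matched here was nearly absent. It had 7.0 estimated counts, or 0.764 CPM, in RNAi cytoplasmic replicate 2 and 0 in the other 8 libraries, where 3 counts would correspond to 0.19 to 0.303 CPM. It stayed below the count minimum and was not tested. Whether reads of RMRP were assigned to transcripts of the files that were paired with no gene was not tested, so these values do not give the level of RMRP RNA. A transcript of 268 nt, ENST00000602361, was paired with no gene by the annotation used and is given by its identifier only. It stood at 1.40 CPM in the control cytoplasm, 3.84, 6.12 and 3.80 CPM in control nuclei, and 0.855 and 0 CPM in the RNAi cytoplasm. RNAi nuclei held 4.44, 100.9 and 6.24 CPM, so RNAi nuclear replicate 2 was again far above the rest. A further unpaired transcript, ENST00000364938, was at 27.5 CPM in that library and at most 1.67 CPM in the others. These identifiers were picked after their values were seen, and no test of theirs is used.

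Among 36 other small structural RNA genes listed, 32 were matched, 3 had no count in any library and 4 were tested. RNAi nuclear replicate 2 was the highest of the 9 libraries for 14 of the 32. These include the 4 U1 genes, which share the same reads, and genes with few counts, such as VTRNA1-2 with 1.0 and RNU5F-1 with 2.0. How often this library was the highest over all tested genes was not counted. The U1 genes RNU1-1 to RNU1-4, which are identical in sequence and so shared their reads evenly, summed to 395 estimated counts there, against 23.1 and 46.4 in the other RNAi nuclei and 14.9 to 28.9 in control nuclei. RNU2-2P had 216 estimated counts against 9.94 and 17.9, and at most 14.5 in a control nucleus. The 5 RNU5 genes had 41.0 against 1.0 and 6.0. The 5 RNU6 genes, U6 being the spliceosomal RNA made by RNA polymerase III, went the other way, with 7.4 estimated counts against 17.6 and 14.8. The 4 vault RNA genes had at most 2.0 counts in any library. High counts in this library were therefore seen for RN7SK and for U1, U2 and U5 RNAs, and not for the U6 or vault RNAs, at levels of a few counts for the latter.

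The 4 tested genes of that list were RNU2-2P, SNORD3A, BCYRN1 and TERC. For nucleus against cytoplasm in RNAi cells, 2 were higher and 1 lower, where 32.9% and 24.9% of all tested genes were. SNORD3A, the U3 snoRNA that takes part in cutting ribosomal RNA, was higher by 1.14 with an FDR of 0.0941, and by 0.66 with an FDR of 0.306 without RNAi nuclear replicate 2. RNU2-2P was called higher as well, but the RNAi cytoplasmic libraries held under 3 counts of it. BCYRN1 was lower in the nucleus, at -1.33 with an FDR of 3.88e-05. It was at 33.9 and 33.3 CPM in the RNAi cytoplasm, 25.8 CPM in the control cytoplasm, 15.2 to 20.9 CPM in control nuclei and 12.5 to 14.1 CPM in RNAi nuclei. Its nucleus/cytoplasm ratio was lower after RNAi, at -0.84 with an FDR of 0.0461. None of the 4 was called for RNAi against control in the nucleus or in the cytoplasm, where 4.89% and 24.6% of all tested genes were.

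The proteins that bind these RNAs were followed through their mRNAs. Of 7 genes of the 7SK particle and P-TEFb, none was called for RNAi against control in the nucleus, against 4.89% of all tested genes. In the cytoplasm 1 was higher and 2 were lower, where 10.4% and 14.2% of all tested genes were, with a list median of -0.22 beside 0.01 over all tested genes. CDK9, the kinase of P-TEFb, was at 34.7 CPM in the control cytoplasm and 72.8 and 69.1 CPM in the RNAi cytoplasm, a log2 fold change of 1.03 with an FDR of 0.00276. CCNT2, a cyclin that pairs with CDK9, was at 17.0 CPM against 5.91 and 4.91 CPM, a change of -1.64 with an FDR of 0.00256. LARP7, which binds the end of 7SK RNA, was at 0.668 CPM against 0.0777 and 0 CPM, and was called lower with an FDR of 0.0242. These RNAi values are below the level of 3 counts, and only 14 of the 39 annotated LARP7 transcripts were matched. HEXIM1, the inhibitor of P-TEFb, was higher in the nucleus by 1.07 in control cells with an FDR of 0.000903, and by 1.07 in RNAi cells with an FDR of 0.000115. In the nucleus/cytoplasm ratio, CCNT2 and LARP7 were higher after RNAi and CDK9 was lower, with FDRs of 0.0108, 0.0339 and 0.0218. Of all tested genes, 10.4% were higher and 7.87% lower in that ratio.

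Of 8 genes of the signal recognition particle and its receptor, 5 were lower in the nucleus and 2 higher in control cells, where 22.7% and 28% of all tested genes were, with a median of -0.83 beside 0.04 over all tested genes. SRP9 was at 202 CPM in the control cytoplasm and 64.5 to 69.9 CPM in control nuclei, and its log2 fold change was -1.58 with an FDR of 1.85e-05. SRPRA, a subunit of the receptor in the endoplasmic reticulum membrane, went the other way, at 152 CPM in the cytoplasm and 339 to 399 CPM in nuclei. In RNAi cells 2 were lower and 1 higher, against 24.9% and 32.9%. After RNAi, 4 of the 8 were lower in the cytoplasm (SRP9, SRP19, SRP54 and SRP72), against 14.2%, and none was called in the nucleus, against 4.89%. SRP54, the GTPase that binds signal peptides, was at 21.2 CPM in the control cytoplasm and 10.8 CPM in each RNAi cytoplasmic library, a change of -0.97 with an FDR of 0.0068. The ratio rose for SRP19, SRP54 and SRP72, by 1.10, 0.83 and 1.09 on the log2 scale, with FDRs of 0.054, 0.0447 and 0.0593. It rose for 10.4% of all tested genes. All cytoplasmic comparisons with control cells share the single control cytoplasmic library.

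Of 11 RNase P and RNase MRP protein genes, 10 were tested. In control cells 4 were lower in the nucleus and none higher, RPP40 the most at -1.35 with an FDR of 0.00103, and in RNAi cells 3 were lower, where 22.7% and 24.9% of all tested genes were lower. Of all tested genes, 28% and 32.9% were higher. None of this list was called in the nucleus after RNAi, against 4.89% of all tested genes. In the cytoplasm RPP40 and RPP30 fell, by 0.86 and 0.85 on the log2 scale, and RPP25 and POP7 rose, by 0.56 and 0.58, where 14.2% of all tested genes fell and 10.4% rose. Without RNAi nuclear replicate 2 only 1 of the 2 risers was still called. No gene of this list was called for the ratio in the fit of all libraries, against 18.2% of all tested genes.

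All 33 genes of RNA polymerase III, its initiation factors and the La protein were tested. In control cells 3 were higher and 10 lower in the nucleus, with a median of -0.42 beside 0.04 over all tested genes, and in RNAi cells 5 were higher and 13 lower. Of all tested genes, 28% and 22.7% were higher and lower in control cells and 32.9% and 24.9% in RNAi cells. After RNAi 7 fell and 4 rose in the cytoplasm, where 14.2% and 10.4% of all tested genes did, and 1, BDP1, rose in the nucleus, where 2.47% did. BDP1, a subunit of the initiation factor TFIIIB, was at 2.79 to 4.18 CPM in control nuclei and 6.24 to 8.05 CPM in RNAi nuclei, a change of 1.08 with an FDR of 0.0315. Without RNAi nuclear replicate 2 the change was 1.12 and the FDR 0.113, so the call was lost at about the same fold. In the cytoplasm it was at 4.62 CPM against 1.24 and 1.09 CPM, a change of -1.96 with an FDR of 0.00487. SSB encodes the La protein, which binds the U-rich end of new RNA polymerase III transcripts. It was at 14.0 CPM in the control cytoplasm and 2.95 and 2.84 CPM in the RNAi cytoplasm, a change of -2.27 with an FDR of 0.000587, while nuclei held 7.42 to 8.57 CPM in controls and 7.40 to 8.33 CPM after RNAi. For the ratio, 4 genes rose and 3 fell, where 10.4% and 7.87% of all tested genes did, BDP1 by 3.04 and SSB by 2.25 for the former, with FDRs of 0.00281 and 0.00152.

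**Figure D5:**
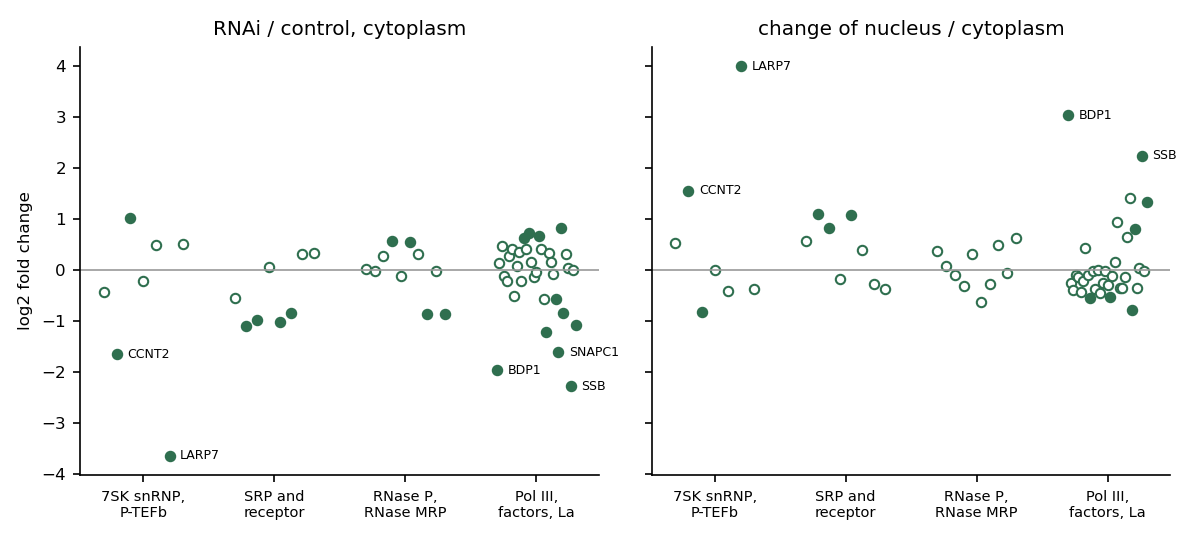
Log2 fold change of each tested gene of the 4 protein lists for RNAi against control in the cytoplasm (left) and for the change of the nucleus/cytoplasm ratio (right), from all 9 libraries. Filled points passed both thresholds. LARP7 is at -3.63 and 3.99, from RNAi cytoplasmic values below the level of 3 counts, and SSB is at -2.27 and 2.25.

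The genes most like RN7SK over the 9 libraries, by Pearson's r of log2 CPM, were ADD2 (0.891), KLHL18 (0.89) and H2AC13 (0.888). RNAi nuclear replicate 2 bears on these values, and without it they were 0.798, 0.63 and 0.864. Over the other 8 libraries the genes most like RN7SK were MORN4 (0.992), TCF3 (0.989) and VASP (0.989). The genes most like RN7SL2 were VPS29 (0.958), UNKL (0.946) and NUS1P2 (0.945), and without that library they were at 0.973, 0.958 and 0.917. Over those 8 libraries the highest were VPS29 (0.973), TUBB1 (0.972) and ISCU (0.964). The points share depth and fraction, so these values describe likeness only.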

How the data were processed

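Groups of the 9 libraries came from the condition and fraction in their labels. The authors trimmed reads with cutadapt and quantified them with salmon against Ensembl transcripts of hg19, which gave, per the labels and the file headers, an estimated count and a TPM for each transcript. The deposited estimated counts were not normalised between samples, and the authors' deposited TPM is corrected for effective length. Versions of these tools were not given in the sources used here. Transcripts were matched without version number to GENCODE on GRCh37, the same build as hg19 (183122 of 215170 transcripts, 85.1%).

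Per gene, the estimated counts of its transcripts were added and then rounded. The main test was edgeR 4.0.16 (R 4.3.3), with TMM, 4 groups, no replicate block and genes with at least 10 counts in at least 3 libraries (16181). The thresholds and the contrast of the nucleus/cytoplasm ratio after RNAi follow the study's methods, and the other 4 comparisons were added here. The SE is the log2 fold change divided by the square root of F, and the residual degrees of freedom were 5. The control cytoplasm takes its spread from the other groups. On simulated counts for RNAi against control in the nucleus (16181 genes), 96% of 200 changed genes were recovered. Of the genes found, 10.7% were unchanged ones. Recovery of changes near the log2 threshold of 0.5, or in a gene with an outlying library such as RN7SK, was not tested.

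The alternatives were DESeq2 1.42.0 size factors, library size only, the DESeq2 Wald test, no filter, a length offset, copies summed per family, unmatched transcripts kept, limma 3.58.1 on log2(TPM + 1) and log2(TPM + 0.1), a replicate block, each library left out except the control cytoplasmic one, and an FDR of 0.05. Fits of the copies apart from the genes, and those without RNAi nuclear replicate 2 for copies, unmatched transcripts and lists, were added after seeing the data. The members and lists were chosen with earlier results of these data known. The genes named from a list are at most the 4 with the largest log2 fold change past both thresholds per list and comparison, plus those over 0.1% of the counts of a library. Copies were taken by gene name. Sequence words were compared over the transcripts of the files that were matched to a gene, and not over the unmatched ones. The sequence of RN7SL2 is not reported here.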

Additional observations from a re-analysis of the deposited data

Results flagged for a closer look

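Results are given here where the test of the difference itself, the change of the nucleus/cytoplasm ratio after RNAi in edgeR's quasi-likelihood fit, passed both thresholds, so that the contrast between fractions differed between RNAi and control cells. All of them rest on the single control cytoplasmic library. Of all tested genes, 18.2% passed both thresholds in that test. The summed RN7SK copies changed by 1.96 on the log2 scale, while RN7SK and RN7SL2 themselves were not called. Among the 7SK particle and P-TEFb genes, CDK9 changed by -0.82, CCNT2 by 1.56 and LARP7 by 3.99, the last from RNAi cytoplasmic values below the level of 3 counts. Among RNA polymerase III genes and factors, SNAPC3 changed by 0.81, ZNF143 by 1.33, SSB by 2.25 and BDP1 by 3.04, the 4 largest, and 3 more genes of that list were lower. The signal recognition particle genes SRP54, SRP72 and SRP19 changed by 0.83, 1.09 and 1.10. The nuclear long non-coding RNAs NEAT1, MALAT1 and KCNQ1OT1 changed by 0.85, 1.33 and 1.58, and BCYRN1 by -0.84. With RNAi nuclear replicate 2 left out, MALAT1 was at 1.34 with an edgeR FDR of 0.134 and was no longer called, while NEAT1 and KCNQ1OT1 were.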

How the results depend on the processing

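The number of members called stayed the same in 81 of 95 comparisons of an alternative with the reported fit. For nucleus against cytoplasm in control cells it went from 0 to 1 with no filter (RN7SK lower), with copies summed per family and with the replicate block (both RN7SL2 higher). In RNAi cells it went from 1 to 2 with library size only and with copies summed per family, and to 3 with no filter. The 3 were RN7SK and RN7SL2, both higher, and RMRP, lower, which had 7.0 estimated counts in 1 library and 0 in the others. With no filter the number of members called went from 0 to 1 for RNAi against control in each fraction and to 2 for the ratio. The cause was not tested. With 1 library left out it ranged from 0 to 1 in control cells (1, RN7SK lower, without RNAi nuclear replicate 2), 1 to 2 in RNAi cells (2 without any one of the RNAi nuclei, the added call being RN7SK higher without replicate 1 or 3 and RN7SK lower without replicate 2), 0 to 0 for RNAi against control in each fraction, and 0 to 1 for the ratio (1, RN7SL2, without control nuclear replicate 2).

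With 1 library left out, the log2 fold change of RN7SK ranged from -1.19 to 2.52 for nucleus against cytoplasm in RNAi cells, from -0.16 to 3.55 for RNAi against control in the nucleus and from -0.05 to 3.66 for the ratio. The lowest value of each range came without RNAi nuclear replicate 2. For RNAi against control in the cytoplasm RN7SK ranged from -0.39 to 0.10, the latter without RNAi cytoplasmic replicate 1. RN7SL2 ranged from -0.050 to 0.54 between fractions in control cells, the lowest without control nuclear replicate 2. For RNAi against control in the nucleus it ranged from -0.045 to 0.58 and was also negative (-0.03) when control nuclear replicate 1 was dropped. DESeq2 gave no p-value for RN7SK. The sum of RN7SL1 and RN7SL2 was not run, because RN7SL1 was not matched.

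Same-numbered control and RNAi nuclei had deviations that correlated at 0.185, 0.11 and 0.042. For the RNAi nucleus and RNAi cytoplasm of replicates 1 and 2 the values were 0.1 and 0.037. The numbers were therefore not taken as pairs. With the replicate block, RN7SK reversed for nucleus against cytoplasm in control cells (0.40) and for RNAi against control in the cytoplasm (1.03), and RN7SL2 was called in control cells (0.68, edgeR FDR 0.0483). Without RNAi nuclear replicate 2, the number of genes called in a list and direction changed by 1 or 2 in a few cases, and NEAT1 (0.46 against 0.52) and KCNQ1OT1 (0.77 against 0.79) were no longer called for RNAi against control in the nucleus.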
